A study of Mus musculus with 21 samples.

Results

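The long gene bodies described here are the 944 protein-coding RefSeq genes on chromosomes 1 to 19 of the mouse build GRCm38 whose annotated body is longer than 200 kb, out of 19300 protein-coding genes with a body of at least 2 kb. The rule is length alone and uses no measured value. The bodies ran from 200.1 kb to 2271 kb, with a median of 326 kb. Together they spanned 399 Mb, 15.3% of the sequence between the first and last gene of those chromosomes. At the lower edge, Plcxd3 (200.1 kb), Pcbp3 (200.3 kb) and Pbx3 (200.6 kb) fell just inside, while Atp9b (199.9 kb), Sergef (199.7 kb) and Morc1 (199.7 kb) fell just outside. The mean cover by peaks of the 3 genes inside was 0%, 0.0410% and 2.75%, and that of the 3 genes outside was 30.6%, 1.89% and 0%.

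The study profiled H3K36me3 by chromatin immunoprecipitation and sequencing (ChIP-seq). The cells were C2C12, mouse myoblasts of an established line that leaves the cell cycle and fuses into myotubes when differentiation is induced. Wild-type (WT) cells and 2 Setd2 knockout (KO) lines were taken at day 0, and at day 1 and day 5 in control medium or under methionine restriction, the question being how methionine supply bears on H3K36me3 during differentiation. Each of the 5 WT groups held 2 libraries, and each KO line gave 1 library per group, 20 libraries in all. The 5 WT groups are called day 0, day 1 control, day 1 restricted, day 5 control and day 5 restricted below. All cells share the C2C12 background, and the KO lines carry a Setd2 knockout whose allele, and whether a line is 1 clone, the labels do not give. The labels do not say that replicates came from separate cultures, so p-values measure the spread between these libraries, which may be technical. The files used here are peak lists without reads, so the depth of sequencing is unknown, and an input library was not analysed here. The measure throughout is cover, the percent of a gene body that lies inside peaks. Cover says where peaks were called and not how much mark a nucleosome carried, and in bulk chromatin fewer marked cells cannot be told apart from less mark per cell. A body was termed fully marked at a cover of 75% or more, partly marked from 10% to under 75%, and little marked below 10%.

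H3K36me3 is placed on nucleosomes by SETD2, a methyltransferase that travels with elongating RNA polymerase II, so the mark lies over the bodies of transcribed genes and usually grows toward the 3′ end. The methyl groups come from S-adenosylmethionine, which cells make from methionine. Long genes need long transcription times, many hold large introns, and many have several promoters, so that a transcript can begin far inside the annotated body. In muscle, the longest transcription units include the giant sarcomere genes Ttn and Nebulin (Neb), while many of the longest mouse genes encode proteins of the synapse.

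The promoter windows of 4 long genes are shown because their cover began at, or differed across, an annotated start inside the body. Each window holds 250 bases before and 50 bases from the start site, taken from RefSeq (GRCm38.p6) and written 5′ to 3′ on the gene's strand, with CG pairs in capitals. Abr encodes a regulator of small GTPases, Chd9 a chromatin remodeller, Runx1 a transcription factor with a distal and a proximal promoter, and Dysf the muscle membrane repair protein dysferlin.
Abr, start 114 kb into the body, chr11:76509370-76509669, - strand: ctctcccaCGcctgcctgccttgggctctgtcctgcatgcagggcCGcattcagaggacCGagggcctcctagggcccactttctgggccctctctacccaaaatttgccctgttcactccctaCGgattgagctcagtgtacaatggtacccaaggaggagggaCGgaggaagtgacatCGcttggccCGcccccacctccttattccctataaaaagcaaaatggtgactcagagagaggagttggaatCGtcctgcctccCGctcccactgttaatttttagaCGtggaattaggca
Abr, start 129 kb into the body, chr11:76494446-76494745, - strand: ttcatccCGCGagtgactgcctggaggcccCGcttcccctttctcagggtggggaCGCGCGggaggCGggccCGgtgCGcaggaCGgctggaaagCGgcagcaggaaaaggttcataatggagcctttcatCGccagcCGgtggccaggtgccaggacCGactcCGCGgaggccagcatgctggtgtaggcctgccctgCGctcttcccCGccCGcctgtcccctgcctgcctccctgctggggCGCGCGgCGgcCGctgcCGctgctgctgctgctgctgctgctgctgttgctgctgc
Chd9, start 0.533 kb into the body, chr8:90828585-90828884, + strand: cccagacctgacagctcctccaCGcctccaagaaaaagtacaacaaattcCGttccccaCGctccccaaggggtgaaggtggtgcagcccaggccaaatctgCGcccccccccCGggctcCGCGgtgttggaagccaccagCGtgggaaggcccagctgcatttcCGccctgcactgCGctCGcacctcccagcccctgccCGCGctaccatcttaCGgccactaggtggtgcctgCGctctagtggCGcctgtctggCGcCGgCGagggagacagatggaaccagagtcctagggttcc
Chd9, start 104 kb into the body, chr8:90931999-90932298, + strand: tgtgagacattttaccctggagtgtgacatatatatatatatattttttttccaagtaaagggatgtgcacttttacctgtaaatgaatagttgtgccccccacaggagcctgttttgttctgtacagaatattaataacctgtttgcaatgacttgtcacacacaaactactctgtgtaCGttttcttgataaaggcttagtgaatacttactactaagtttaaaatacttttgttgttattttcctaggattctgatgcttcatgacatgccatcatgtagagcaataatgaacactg
Runx1, start 0 kb into the body, chr16:92826025-92826324, - strand: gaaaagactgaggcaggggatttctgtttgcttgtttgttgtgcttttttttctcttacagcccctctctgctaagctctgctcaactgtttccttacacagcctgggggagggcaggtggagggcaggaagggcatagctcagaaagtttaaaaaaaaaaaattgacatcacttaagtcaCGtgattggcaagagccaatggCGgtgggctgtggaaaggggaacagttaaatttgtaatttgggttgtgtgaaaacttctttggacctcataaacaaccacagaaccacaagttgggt
Runx1, start 129 kb into the body, chr16:92697280-92697579, - strand: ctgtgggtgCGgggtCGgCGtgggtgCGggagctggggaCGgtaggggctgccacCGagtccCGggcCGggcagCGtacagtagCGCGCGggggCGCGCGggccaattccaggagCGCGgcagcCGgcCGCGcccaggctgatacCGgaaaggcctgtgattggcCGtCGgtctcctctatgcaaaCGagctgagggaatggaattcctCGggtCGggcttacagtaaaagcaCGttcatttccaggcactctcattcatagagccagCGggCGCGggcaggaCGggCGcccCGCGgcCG
Dysf, start 0.237 kb into the body, chr6:84008348-84008647, + strand: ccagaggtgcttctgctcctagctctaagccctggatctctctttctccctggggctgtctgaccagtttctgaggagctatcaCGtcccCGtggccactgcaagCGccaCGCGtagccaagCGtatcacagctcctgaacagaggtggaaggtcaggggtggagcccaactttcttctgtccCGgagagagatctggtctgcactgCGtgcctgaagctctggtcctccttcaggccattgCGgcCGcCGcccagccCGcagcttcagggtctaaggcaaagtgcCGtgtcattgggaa
Dysf, start 11.03 kb into the body, chr6:84019136-84019435, + strand: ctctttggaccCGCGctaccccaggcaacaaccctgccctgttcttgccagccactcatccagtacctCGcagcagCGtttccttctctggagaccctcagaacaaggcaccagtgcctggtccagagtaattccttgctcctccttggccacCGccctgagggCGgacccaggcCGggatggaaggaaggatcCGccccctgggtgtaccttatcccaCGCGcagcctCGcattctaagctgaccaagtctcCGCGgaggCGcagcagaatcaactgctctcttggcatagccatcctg

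The windows differed in their CG pairs. The Abr starts at 113.9 and 128.8 kb held 10 and 25, the Chd9 starts 19 and 1, the Runx1 starts 2 and 35, and the Dysf starts 13 and 14. Over all 19079 promoter windows of the table the median was 15, with quartiles of 5 and 25. The motif CAGCTG, an E-box that reads the same on both strands, was present only in the first Chd9 window among these 8, and in 3088 of the 19079 windows (16.2%). A count of CG pairs or a motif match describes the sequence and is not evidence of use.

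The WT lists held 63423 to 87398 peaks and covered 110 to 183 Mb. KO line 2 had 127 to 13880 peaks. KO line 1 had 791 to 23529 at day 0 and day 1, below every WT list, but 64530 in control medium at day 5, within the WT range, and 52487 in restricted medium. These 2 day 5 lists covered 74.1 and 45.8 Mb, less than any WT list. The day 1 restricted lists of both KO lines, with 791 and 127 peaks, stood apart from all others. Of 7 muscle markers checked (Myod1, Myf5, Des, Cdh15, Myog, Myh3 and Acta1), 4 had a cover of at least 10% at day 0, 6 at day 1 control, 2 at day 1 restricted, 6 at day 5 control and 3 at day 5 restricted. Mean cover at day 5 in control and restricted medium was 92.6% and 0% for Myog, 72.6% and 0% for Myod1, 93.1% and 8.66% for Acta1, 86.8% and 43.3% for Des, 93.1% and 57.3% for Myh3 and 82.8% and 73.8% for Cdh15. Neuronal Snap25 and Syt1, blood Ptprc and Itgam, and liver Alb had no peak in any WT list, nor had fibroblast Thy1. Neuronal Rbfox3 reached at most 0.0678%, fibroblast Pdgfra 3.23% and blood Csf1r 14.1%. Neuronal Tubb3 reached 64.3%, and the fibroblast collagens Col1a1 and Col1a2 reached 92.3% and 94.4%.

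Most long gene bodies carried little or no H3K36me3. In the 10 WT lists, 371 of the 944 bodies (39.3%) had no covered base, 751 (79.6%) never reached 10%, and 193 (20.4%) reached 10% at least once. Of the 18356 other genes, 7219 (39.3%) had no covered base and 8730 (47.6%) never reached 10% in the 10 lists. Cover of at least 10% in all 10 WT lists was found for 72 bodies, 65 of them partly marked throughout, and no body was fully marked in all 10. Full marking in at least 1 WT list was limited to 13 genes, among them Adamts6, Clasp1, Ctif, Dclk1, Dysf, Eif4g3, Msi2, Neb, Prune2, Runx1, Sh3pxd2a and Ttn. Between 86 and 164 bodies were partly marked and 0 to 12 fully marked in a WT list. By comparison, 752 and 482 of the 18356 other genes were fully marked in the day 1 restricted lists, and 2390 and 1950 in the day 5 control lists.

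Mean cover of the 944 bodies was 4.84% ± 0.509 (SD, n = 2 libraries, here and below) at day 0, 4.05% ± 0.222 at day 1 control, 3.18% ± 0.539 at day 1 restricted, 6.57% ± 0.483 at day 5 control and 3.98% ± 0.106 at day 5 restricted. The other genes had 26.9% ± 1.06, 23.6% ± 0.650, 17.8% ± 1.74, 26.03% ± 1.08 and 19.8% ± 0.249. Long bodies had their highest mean at day 5 control; in the other genes the day 0 and day 5 control libraries overlapped. The share of all covered bases that lay in long bodies was 7.72% ± 0.213 at day 0, 7.44% ± 0.0425 at day 1 control, 7.21% ± 0.440 at day 1 restricted, 10.1% ± 0.272 at day 5 control and 8.15% ± 0.0805 at day 5 restricted. These means and shares are descriptions and were given no test.

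Classes by group mean changed with day and medium. Runx1 alone was fully marked at day 0, Runx1 and Ttn at day 1 control, and no gene at day 1 restricted. At day 5 control 11 were fully marked, among them Clasp1, Ctif, Dclk1, Dysf, Eif4g3, Neb, Prune2, Runx1, Sh3pxd2a and Ttn. At day 5 restricted only Neb and Ttn were. From day 0 to day 5 control, 7 partly marked genes became fully marked, 3 little marked genes (Dclk1, Dysf and Neb) became fully marked, 44 little marked genes became partly marked, and 10 went from partly to little marked. From day 5 control to day 5 restricted, 9 went from fully to partly and 51 from partly to little marked, and 3 (Dync1i1, Pam and Tasp1) from little to partly marked. Bodies without a covered base numbered 491 to 505 in the 4 restricted WT lists and 519 to 559 in the other 6 (52.01% to 53.5% and 55.0% to 59.2%), while the share of other genes without a covered base was 48.2% to 49.7% and 44.9% to 46.3%.

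**Figure D1:**
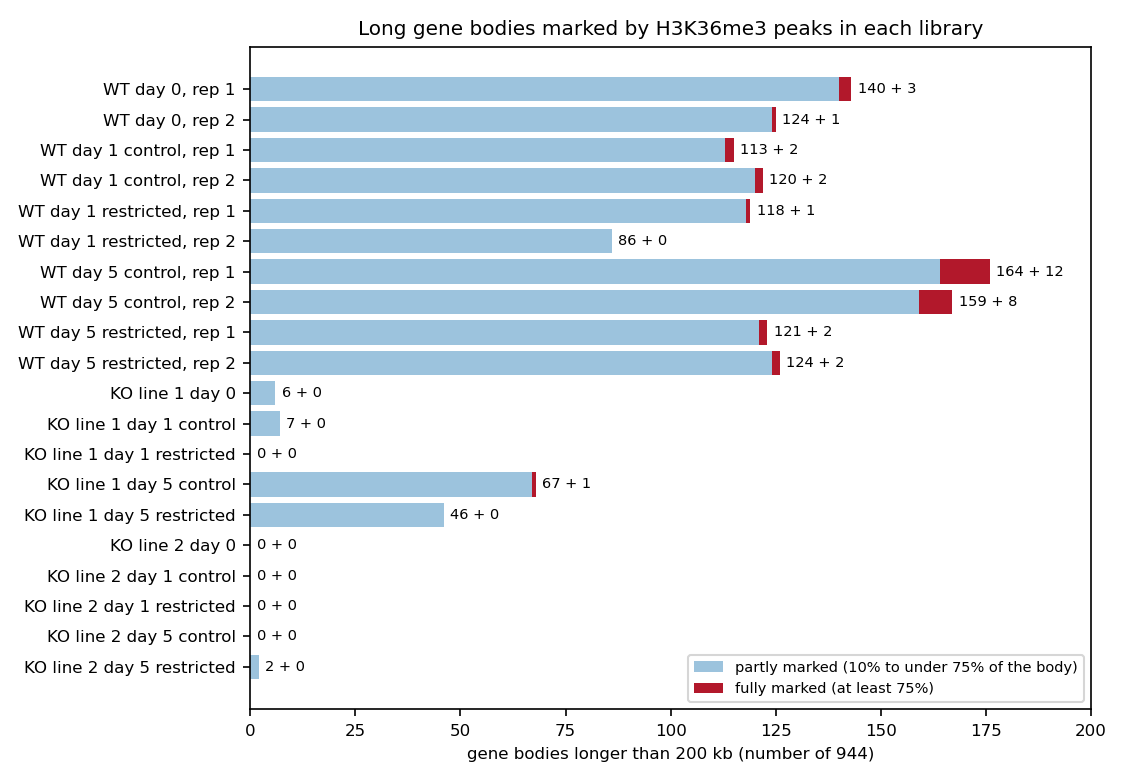
Number of the 944 long gene bodies that were fully or partly marked in each of the 20 libraries. The 2 day 5 control WT libraries hold 12 and 8 fully marked and 164 and 159 partly marked bodies; KO line 1 at day 5 holds 67 and 46 partly marked bodies, and KO line 2 at most 2.

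Marking became rarer with length. At day 5 control, 120 of 412 bodies of 200 to 300 kb had a group mean of at least 10% (29.1%), 43 of 317 of 300 to 500 kb (13.6%), 10 of 160 of 500 to 1000 kb (6.25%) and 1 of 55 above 1000 kb (1.82%). The same order held at day 0, with 24.0%, 9.78%, 4.38% and 0%. That 1 body was Cdh13 (chr8:118140017-119324929, 1185 kb), which encodes T-cadherin. Its cover was 2.23% and 1.79% at day 0, 2.94% and 2.49% at day 1 control, 1.75% and 0.714% at day 1 restricted, 32.7% and 27.9% at day 5 control and 9.48% and 9.21% at day 5 restricted, so the day 5 control libraries lay above all others. The 5 longest bodies, Ptprd, Cntnap2, Lsamp, Lrp1b and Macrod2, of which the first 4 encode neuronal adhesion and receptor proteins, had at most 0.298% cover in any WT list. Of 33 synaptic and neuronal genes listed, all longer than 200 kb, 20 had no covered base in any WT list and none reached 10%.

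The cover of a marked long body was usually broken into many short blocks. The WT lists held 7428 to 12600 covered blocks in long bodies, with a median block of 0.593 to 0.718 kb, and 0 to 11 blocks of 50 kb or more. Median peaks were shorter inside long bodies than elsewhere in every WT list (595 against 828 bases in day 0 replicate 2, 721 against 922 in day 5 control replicate 1). Their median rank by the authors' fold enrichment lay between the 38.0th and 41.8th percentile of each WT list. The longest block in a long body was 125 kb in Ttn at day 5 control replicate 1, followed by Trio (108 kb, a guanine nucleotide exchange factor), Neb (84.5 kb), Dst (82.9 kb at day 0 replicate 1, a giant linker of cytoskeletal filaments) and Rbfox2 (72.4 kb, a splicing regulator).

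In Ttn, cover lay in fewer and longer blocks at day 5. It was covered in 60 and 107 blocks at day 0 and in 5 and 7 at day 5 control, a log2 difference of -3.55 ± 0.29 (SE, limma, adjusted p = 8.87e-05). At day 5 restricted it had 14 and 16 blocks, and the difference from control was 1.20 ± 0.29 (SE, limma, adjusted p = 0.0244). Neb went from 13 and 10 blocks at day 5 control to 30 and 25 at day 5 restricted, and Runx1 from 24 and 26 to 45 and 55. In both genes the restricted libraries held more and shorter blocks, with no overlap between the groups. Over the 193 long genes tested, the number of blocks was higher for 38 and lower for 17 at day 5 control against day 0 (5.27% and 3.37% of the 9512 genes tested, 8.64% together), and higher for 11 and lower for 84 at day 5 restricted against control (2.02% and 13% of all, 15% together). For day 1 restricted against control it was higher for 10 and lower for 33 (1.59% and 5.65% of all, 7.23% together), and for day 1 control against day 0 higher for 3 and lower for 4 (0.652% and 0.421% of all, 1.07% together). With peaks within 3 kb of each other joined, there were 18, 25, 5 and 2 calls in the 4 comparisons, in that order.

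Along the body, cover rose toward the 3′ end. In the 151 tested long genes of known strand, mean cover went from 14.47% in the first of 10 equal parts to 44.1% in the last at day 0, from 11.3% to 40.9% at day 1 control, from 6.40% to 33.5% at day 1 restricted, from 17.9% to 53.9% at day 5 control and from 7.52% to 43.7% at day 5 restricted. Of 54 genes of known strand that were partly marked in all 10 WT lists, 44 had more cover at the 3′ end than at the 5′ end and 10 the opposite, with a median difference of 47.7 points, each end being the outermost of 3 equal parts. Restricted groups had a lower share of the control level at the 5′ end than at the 3′ end. Mean cover at day 5 restricted was 47.1% of control at the 5′ end and 70.9% at the 3′ end, and at day 1 it was 66.4% and 78.2%. In points the day 5 fall was larger at the 3′ end, from 43.6% to 30.9%, than at the 5′ end, from 17.5% to 8.26%. Other tested genes also kept a lower share at the 5′ end at day 5. They had 29.3% and 26.4% in control and 15.3% and 15.7% restricted there, and 69.2% and 66.7% against 58.1% and 58.8% at the 3′ end. The promoter windows themselves were seldom inside peaks, with 6 to 21 of the 244 windows of these long genes touched in a WT list and 164 to 451 of the 9547 windows of other tested genes.

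**Figure D2:**
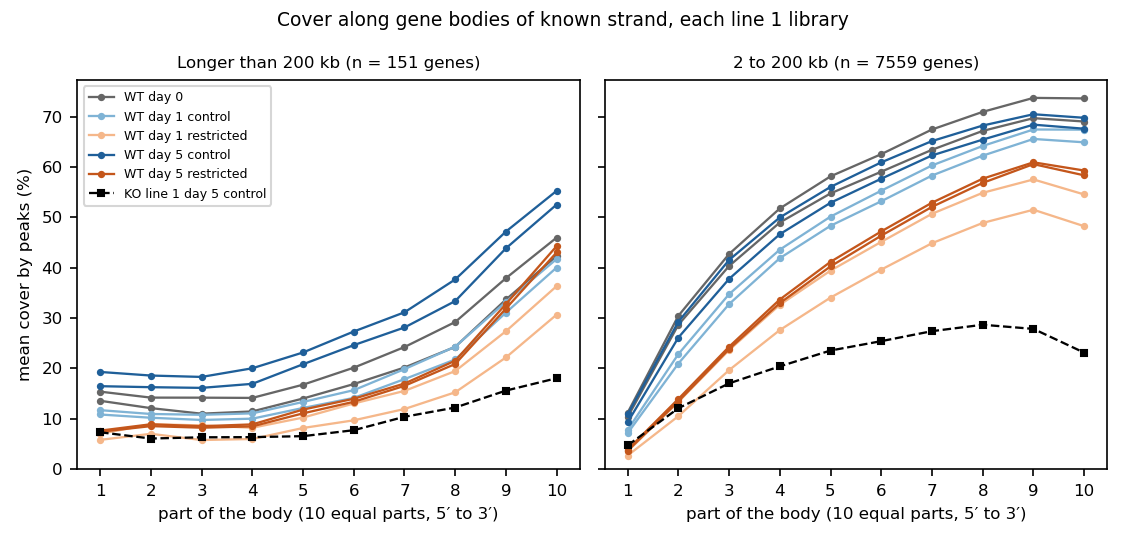
Mean cover in 10 equal parts of the body from the 5′ to the 3′ end, 1 line per library, for tested long genes of known strand and for other tested genes. In long genes the day 5 control lines run from 17.9% to 53.9% on average and the day 5 restricted lines from 7.52% to 43.7%.

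Cover differed between the segments that lie between annotated starts. Of 62 tested long genes with start sites at least 10 kb apart, 37 had a rise of 30 points or more from one segment between starts to the next at day 5 control, 1 (Dlg1) had a fall of that size, and in 56 the last segment was the most covered. Cover before the start was under 1% for 14 of the 37 and up to 39.7% in the others. As cover rose toward the 3′ end in general, these counts do not show that it began at starts. In Abr, the 3 segments up to 128.8 kb had no covered base at day 5 control in either library. The 2 segments after it were covered to 96.2% and 91.999% and to 100% and 94.4%. The start where the cover began is the window above with 25 CG pairs. Chd9 had 2.44% and 0.305% cover up to its second start at 103.9 kb and 67.8% and 63.8% after it, a start whose window held 1 CG pair. In Dst the 3 segments were covered to 2.67%, 39.7% and 98.6% at day 5 control, and Filip1l, Lmo7, Tjp1 and Phldb2 went from under 1% to 82.7%, 76.2%, 74.4% and 67.6% at an inner start.

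Runx1 was covered on both sides of its inner start in control medium, with 89.6% and 88.8% before it and 95.7% and 94.7% after it at day 5. At day 5 restricted the values were 16.5% and 22.3% before and 42.5% and 45.6% after, and in KO line 1 at day 5 control they were 36.4% and 88.7%. Cover was lower before the inner start than after it in all of these libraries, those in control medium included. Dysf had 18.2% cover before its second start, 11.03 kb into the body, and 88.7% after it at day 5 control.

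**Figure D3:**
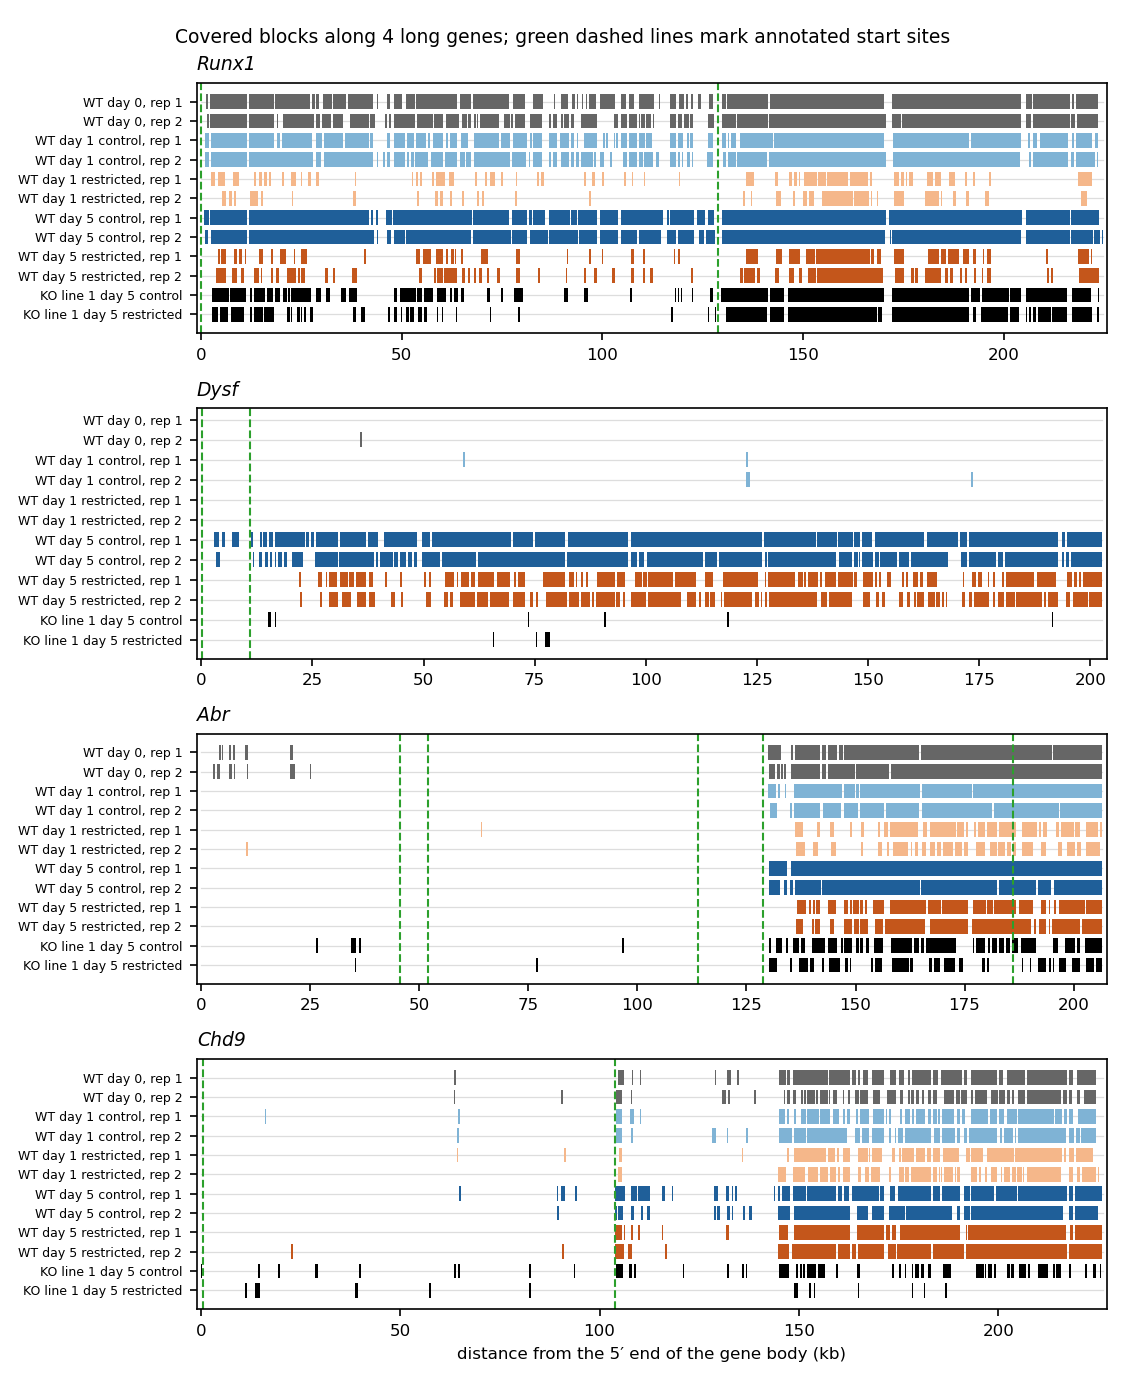
Covered blocks (bars) along Runx1, Dysf, Abr and Chd9 in the 10 WT libraries and in KO line 1 at day 5, against distance from the 5′ end of the body in kb; green dashed lines mark annotated start sites. In Abr no block lies before 128.8 kb at day 5 control, and in Runx1 the restricted libraries are sparser before the start at 128.7 kb.

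The difference between the 3′ and 5′ ends was also tested per gene in the 151 long genes of known strand. It is in points and is bounded by the cover of the body, so a gain or loss of cover moves it too. A small difference in a group is therefore not told apart from little cover there. The minimum of 5% mean cover applied here as well, and a body can pass it through a single group. At day 5 restricted against control it was higher for 15 and lower for 24 (15.5% and 9.21% of the 7710 genes tested, 24.7% together), the lowest being Aopep (-42.8 points), Stard13 (-41.8) and Nav2 (-39.9) and the highest Eif4g3 (32.1), Dclk1 (24.5) and Atxn7l1 (23.2). At day 1 restricted against control it was higher for 5 and lower for 12 (5.97% and 9.05% of all, 15% together). At day 5 control against day 0 it was higher for 16 and lower for 4 (3.76% and 3.59% of all, 7.35% together), led by Nav2 (70.9), Rap1gap2 (61.3) and Sorbs2 (55.98). At day 1 control against day 0 limma called 0 long genes (0.454% of all genes were called higher and 0.272% lower, 0.726% together). An unadjusted limma p under 0.05 was found for 18 long genes, a count with no share over all genes at hand.

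From day 0 to day 5 in control medium, more long genes gained cover than lost it. A gene was tested where its cover averaged at least 5% across the WT lists. Of the 193 long genes tested, cover rose in 73 and fell in 20. Over all 9512 genes that met the same minimum, 12.2% rose and 15.6% fell, 27.8% together. The median difference was 5.46 points in the long genes and -1.17 over all genes tested. A body covered in a single group can pass this minimum on that group alone: of the 73 that rose, 58 also averaged 5% over the WT lists without day 5 control, and the other 15 passed through the group in which they were high. With each library centred on its own median cover, 87 rose and 17 fell (16.97% and 13.7% of all genes tested), and with lists shortened to equal covered length 39 rose and 10 fell of 128 tested (10.1% and 15.3% of all). With the stricter peak threshold (−log10 q of at least 3), 30 rose and 16 fell of 124 (7.26% and 17.5% of all), and the median was 1.61 points in long genes and -3.43 over all. With only these 2 groups in the fit 41 rose and 7 fell, and with no minimum of cover there were 177 calls.

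The largest gains were in Neb, Dysf and Dclk1, which had under 1% cover at day 0. Neb (chr2:52136640-52338798), the ruler of the sarcomere's thin filaments, had 0.849% and 0.700% cover at day 0, 8.94% and 9.80% at day 1 control and 95.7% and 95.1% at day 5 control, a rise over day 0 of 94.6 points ± 3.33 (SE, limma, adjusted p = 1.08e-06). Dysf (chr6:84008361-84211060, + strand) had 0% and 0.148%, then 0.460% and 0.718%, then 88.2% and 81.5%, a rise of 84.8 points ± 3.46 (SE, limma, adjusted p = 1.56e-06). Neither gene's day 5 libraries came near those of day 0 or day 1. Dclk1 (chr3:55242303-55539068, + strand), a kinase that binds microtubules, went from 0.728% and 0.849% at day 0 to 87.2% and 82.4% at day 5, a rise of 83.99 points ± 2.91 (SE, limma, adjusted p = 1.04e-06). The translation factor gene Ctif rose from 14.1% and 19.9% to 78.96% and 74.05%, or by 59.5 ± 3.90 (adjusted p = 1.32e-05). In these 4 genes the day 5 libraries lay above all day 0 libraries, as the naming rule required. All of the 18 alternative settings in which the 4 genes were tested kept the call.

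Ttn (chr2:76703980-76982557, - strand), the molecular spring of the sarcomere, was already covered in myoblasts. Its cover was 81.5% and 61.2% at day 0, 92.8% and 94.5% at day 1 control and 96.9% and 96.6% at day 5 control, a rise from day 0 to day 5 of 25.4 points ± 5.73 (SE, limma, adjusted p = 0.0112). The day 0 libraries differed more from each other than those of any later group, and the call was lost without either day 5 control library (adjusted p from 3.59e-04 to 0.0767 over the 18 alternative settings). Runx1 (chr16:92601466-92826074, - strand) had 80.4% and 78.1%, 76.8% and 80.3% and 92.2% and 91.3%, and its difference of 12.5 points ± 4.04 (SE, limma, adjusted p = 0.0503) did not pass the test.

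Losses by day 5 were smaller and fell on other genes. Syne2 (chr12:75818318-76110928, + strand), which encodes the nuclear envelope linker nesprin-2, had 44.2% and 40.7% at day 0, 29.3% and 33.02% at day 1 control and 5.24% and 5.73% at day 5 control, a difference of -36.96 points ± 3.38 (SE, limma, adjusted p = 7.86e-05). Meis2, a homeobox transcription factor, had 68.5% and 49.5% and 27.7% and 25.2%, or -32.6 ± 6.13 (adjusted p = 0.00473). Mcph1, which acts in chromosome condensation, had 38.5% and 38.6% and 13.6% and 9.74%, or -26.9 ± 2.98 (adjusted p = 2.42e-04). Of its body, 24.6% is shared with other annotated genes, the largest share among the named genes. Day 0 and day 5 libraries did not overlap in these 3 genes, a condition for naming them that 61.9% of all genes tested met. Sorcs2, a sorting receptor, and Specc1 fell by 19.7 and 19.03 points. With equal covered length the call on Syne2 was lost (highest adjusted p = 0.152), and with only the 2 groups in the fit that on Meis2 (highest adjusted p = 0.0507).

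**Figure D4:**
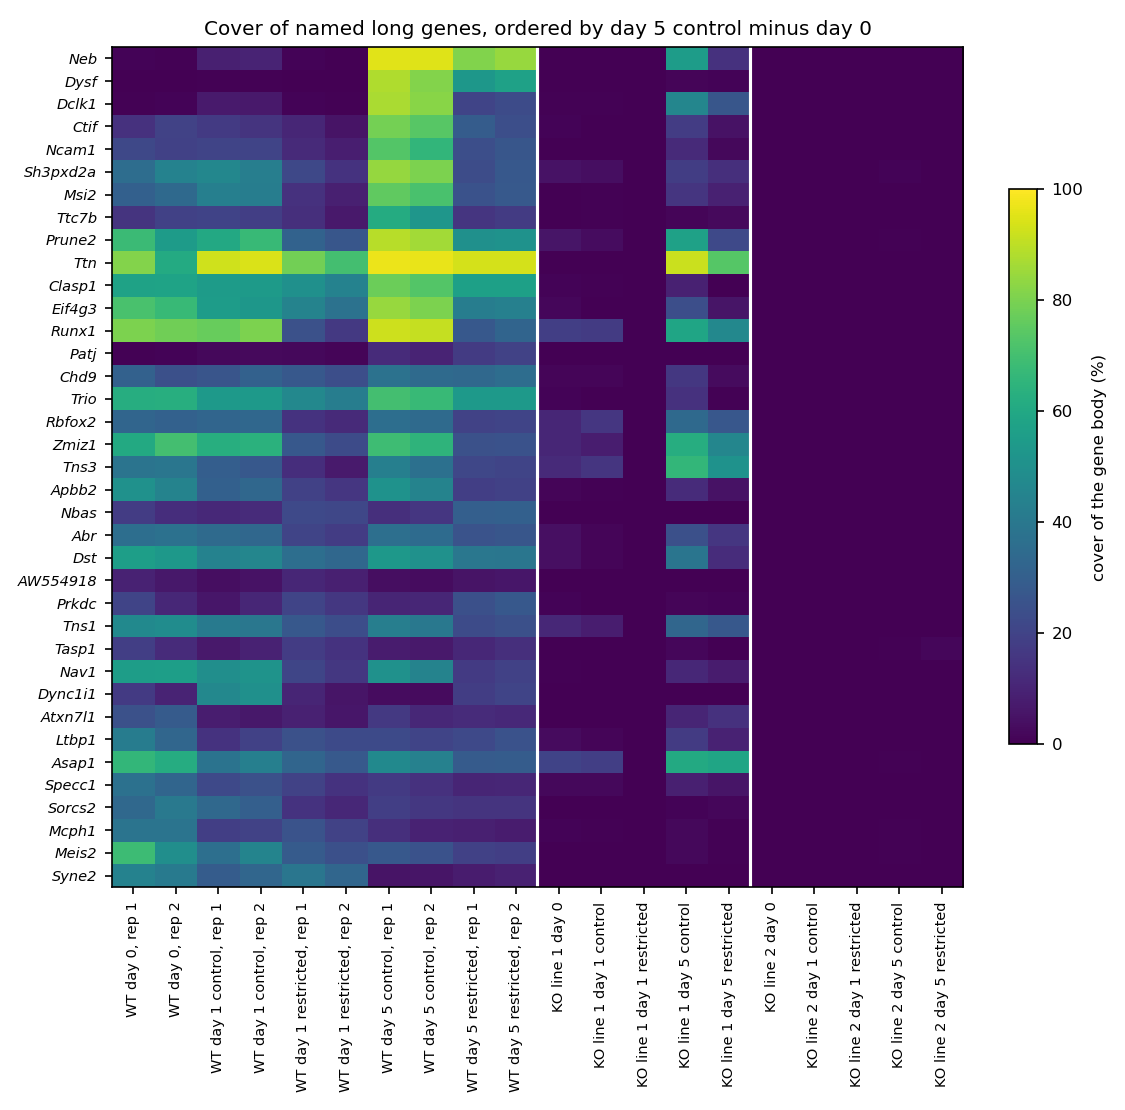
Percent cover of the named long genes (rows, ordered by day 5 control minus day 0) in the 20 libraries (columns). Neb, Dysf and Dclk1 go from under 1% at day 0 to 81.5% or more at day 5 control; Syne2 goes from above 40% to under 6%.

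Long genes were also counted by function over this interval; the lists were drawn up with earlier results of these data known and support nothing about direction. Beside the counts below stand 12.2% higher and 15.6% lower among all genes tested, and 73 and 20 of the 193 long genes. Of 23 muscle and excitation genes 21 were longer than 200 kb (not Svil and Pdlim5) and 10 were tested (among them Cacna2d1, Camk2d, Ncam1, Neb, Palld, Sorbs2, Tead1, Ttn and Utrn). Cover rose in 9 of these 10 and fell in 0, with a median of 25.7 points against -1.17 over all genes. Ncam1, an adhesion molecule of myotubes and neurons, rose from 21.7% and 19.2% to 73.1% and 65.7%, and Sorbs2 from 14.6% and 9.18% to 43.3% and 38.8%. Over all 21 the median cover was 0.430% at day 0, 14.8% at day 5 control and 4.16% at day 5 restricted. Of 13 tested genes for cytoskeletal linkers and motility 4 rose and 4 fell, with a median of 2.19 points. Of 9 for transcription and chromatin 3 rose and 2 fell (median 6.40), of 7 for matrix and guidance 2 rose and 1 fell (median 7.57), and of 4 widely expressed genes or fragile sites 3 rose (median 7.35). No synaptic gene reached the minimum for a test.

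The share of long genes called over the first day of differentiation was near that of all genes. At day 1 control against day 0 cover rose in 1 and fell in 12 of 193 (0.967% and 5.65% of all genes tested, 6.61% together), with a median of -2.65 points and of -5.30 over all genes. Centring each library turned this to 12 higher and 1 lower (2.37% and 1.14% of all), and equal covered length gave 4 higher and 1 lower (1.44% and 1.42% of all). A limma fit of those 2 groups alone called none. In that fit 39 of the 193 long genes and 1897 of the 9512 genes tested had an unadjusted p under 0.05, a similar share. The count was 1 without day 1 control replicate 2, 2 without replicate 1 of that group, 5 without day 0 replicate 1 or either day 5 restricted library, 8 without either day 1 restricted library, and 21 without day 0 replicate 2. The comparison shares its day 0 libraries with the day 5 comparison. The 1 rise was Dync1i1 (chr6:5725600-6028039, + strand), which encodes an intermediate chain of the dynein motor, with 17.2% and 9.90% at day 0, 46.8% and 50.1% at day 1 control and 3.29% and 3.01% at day 5 control. Its day 1 control libraries lay above all other WT libraries, and the difference from day 0 was 34.9 points ± 3.27 (SE, limma, adjusted p = 0.00171). Asap1, which regulates Arf GTPases at adhesions, fell from 66.4% and 62.02% to 38.1% and 42.99%, or by 23.6 points, with adjusted p = 0.0132 in limma. Ltbp1 (-20.5 points), Mcph1 (-19.5), Atxn7l1 (-19.4) and Apbb2 (-15.7) were the next. The calls on Asap1, Ltbp1 and Mcph1 were lost without either day 1 control library, the call on Atxn7l1 without replicate 2 of that group, and the call on Apbb2 under 15 of 18 settings. Over the alternative settings limma gave adjusted p from 0.0138 to 0.149 for Asap1, 0.0121 to 0.168 for Ltbp1, 0.00442 to 0.277 for Mcph1, 0.00805 to 0.142 for Atxn7l1 and 0.0377 to 0.912 for Apbb2. That on Dync1i1 was lost only in the fit of the 2 groups alone (adjusted p from 1.87e-04 to 0.135).

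Under methionine restriction at day 1, more long genes lost cover than gained it in the deposited lists. Against day 1 control, cover fell in 46 of 193 long genes and rose in 3 (36% and 2.38% of all genes tested, 38.4% together), with a median of -2.46 points against -7.99 over all. The split depended on scaling: centring each library on its median, which moved the median of all genes to 7.20 points, gave 136 higher and 7 lower (36.98% and 13.1% of all genes), and equal covered length 21 higher and 19 lower of 128 (10.1% and 23.7% of all). Without day 1 control replicate 1 or 2, or day 1 restricted replicate 2, there were 25, 19 and 17 calls in place of 49.

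Runx1 had the largest fall, from 76.8% and 80.3% in control to 24.8% and 16.6% in restricted medium, a difference of -57.9 points ± 4.04 (SE, limma, adjusted p = 4.83e-05). Dync1i1 fell from 46.8% and 50.1% to 10.5% and 5.53%, a difference of -40.4 points ± 3.27 (SE, limma, adjusted p = 7.61e-05). In both genes the groups lay far apart, and the restricted Dync1i1 libraries overlapped those of day 0, at 17.2% and 9.90%. Zmiz1, a transcriptional coregulator, had 62.9% and 63.8% and 27.5% and 22.7%, or -38.2 ± 4.31 (adjusted p = 2.99e-04). Prune2 had 60.3% and 67.4% and 31.4% and 26.7%, or -34.9 ± 5.04 (adjusted p = 0.00108), and Nav1, which binds microtubule ends, 49.4% and 51.2% and 20.7% and 16.1%, or -31.9 ± 3.76 (adjusted p = 3.77e-04). These 5 genes stayed called and lower under every alternative setting run. Ttn fell from 92.8% and 94.5% to 78.8% and 70.1%, by 19.2 points (limma, adjusted p = 0.0294), a call lost under centring, with no minimum of cover, and without either day 1 control, either day 5 control or the second day 1 restricted library (adjusted p from 0.00183 to 0.468). Higher under restriction were Nbas, which acts in Golgi-to-ER transport (11.5% and 12.2% in control, 22.1% and 21.2% restricted, 9.79 ± 2.67 (adjusted p = 0.0202)), Tasp1 (7.97 points) and AW554918 (5.43 points). Each of these 3 calls was lost without any 1 of the 4 day 1 libraries, with adjusted p over the alternative settings from 6.23e-04 to 0.251, from 3.33e-04 to 0.204 and from 4.72e-04 to 0.164.

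At day 5 restriction lowered the cover of 109 of 193 long genes and raised it in 4, beside 41.5% and 4.32% of all genes tested, 45.8% together. The median difference was -8.02 points, against -9.15 over all genes. Genes that passed the 5% minimum only through day 5 control are tested here where they are high, which favours a fall. Cdh13 (-20.9 points), covered mainly at day 5 control, was among the genes called lower. Centring, which moved the median of all genes to 7.53, gave 101 higher and 23 lower (39.6% and 14.7% of all genes), and equal covered length gave 20 higher and 40 lower of 128 (17.04% and 24.8% of all). Without day 5 control replicate 1 there were 75 calls, and without day 5 restricted replicate 1 there were 74.

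The largest falls under restriction at day 5 were in Dclk1, Runx1, Sh3pxd2a, Ctif and Msi2; the comparison shares its day 5 control libraries with that against day 0. Dclk1 had 87.2% and 82.4% in control and 20.4% and 22.8% in restricted medium, a difference of -63.2 points ± 2.91 (SE, limma, adjusted p = 5.30e-06). Runx1 had 92.2% and 91.3% and 27.6% and 32.2%, a difference of -61.9 points ± 4.04 (SE, limma, adjusted p = 1.86e-05). Sh3pxd2a, a scaffold of podosomes, had 84.2% and 80.1% and 23.3% and 27.4%, or -56.8 ± 4.58 (adjusted p = 4.46e-05). Ctif had 78.96% and 74.05% and 29.1% and 24.1%, or -49.9 ± 3.90 (adjusted p = 3.96e-05), and the RNA-binding gene Msi2 75.6% and 71.3% and 25.2% and 27.8%, or -46.9 ± 3.81 (adjusted p = 4.52e-05). All 5 were lower in both restricted libraries than in both controls, as the naming rule required (79.3% of all genes tested did not overlap). The 5 genes stayed called under every alternative setting run. For Runx1 the restricted level lay below that of day 0, whereas Dclk1 and Ctif stayed above theirs in both libraries.

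The sarcomere genes Ttn and Neb stayed fully marked under restriction at day 5. Ttn had 96.9% and 96.6% in control and 93.5% and 93.4% under restriction, a difference of -3.29 points ± 5.73 (SE, limma, adjusted p = 0.676) that did not pass the test. Of the shorter muscle markers, Myog, Myod1 and Acta1 were at 0%, 0% and 8.66% in the same restricted group. Des, Myh3 and Cdh15 were at 43.3%, 57.3% and 73.8% there, and Myf5 was at 0% in both media at day 5. The part of these markers in the results was not tested. Neb had 95.7% and 95.1% and 81.2% and 84.5%, a difference of -12.5 points ± 3.33 (SE, limma, adjusted p = 0.0151); the sign reversed to 4.14 points with centring, and the call was lost without day 5 control replicate 1 or day 5 restricted replicate 1 (adjusted p from 0.00644 to 0.364). Dysf had 88.2% and 81.5% and 52.9% and 57.1%, or -29.9 ± 3.46 (adjusted p = 2.55e-04). By function, the counts stand beside 41.5% lower and 4.32% higher among all genes tested and 109 and 4 of the 193 long genes. Of the 10 muscle and excitation genes tested 7 fell and 0 rose, with a median of -18.9 points, and centring gave 2 higher and 2 lower. Of the cytoskeletal genes 8 of 13 fell (centring gave 6 higher and 1 lower), of those for transcription 6 of 9 (2 higher and 1 lower), of the matrix genes 5 of 7 (2 and 2), and of the widely expressed genes 2 of 4 (2 and 0).

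A rise under restriction at day 5 was seen in Dync1i1, Nbas, Prkdc and Patj. Dync1i1 had 3.29% and 3.01% in control and 18.2% and 20.3% under restriction, a difference of 16.1 points ± 3.27 (SE, limma, adjusted p = 0.0045). Nbas had 13.4% and 15.97% and 30.2% and 30.6%, or 15.7 ± 2.67 (adjusted p = 0.00182). Prkdc, the catalytic subunit of the DNA-dependent protein kinase of break repair, had 10.2% and 10.8% and 24.4% and 27.7%, or 15.5 ± 3.55 (adjusted p = 0.00785). Patj, a cell polarity scaffold, had 12.4% and 10.05% and 17.5% and 19.9%, or 7.43 ± 1.72 (adjusted p = 0.00812). Restricted and control libraries did not overlap in any of the 4, which the naming rule required and which held for 79.3% of all genes tested. The calls on Prkdc and Patj were lost without day 5 restricted replicate 2, and that on Dync1i1 with a stricter peak threshold. Their adjusted p ran from 1.27e-04 to 0.0516, from 2.34e-04 to 0.0574 and from 1.09e-04 to 0.172 over the settings.

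**Figure D5:**
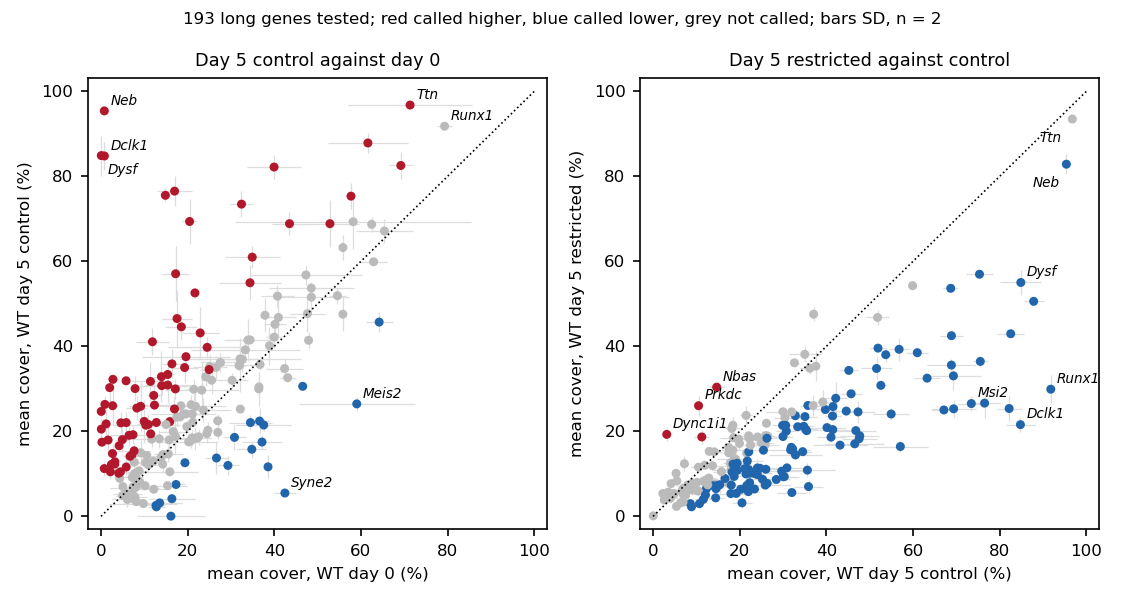
Mean cover of the 193 tested long genes in pairs of WT groups (axes in percent of the body; bars are SD, n = 2). Red points were called higher and blue points lower by limma; Neb, Dysf and Dclk1 lie far above the diagonal at day 5 control against day 0, and Dclk1 and Runx1 far below it at day 5 restricted against control.

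The effect of restriction differed between day 1 and day 5 for 21 long genes, 20 with a lower and 1 with a higher value at day 5 (3.58% and 1.62% of all genes tested; 5.2% in either direction). The median difference of effects was -5.48 points in long genes and -0.37 over all. It was -1.05 and 4.52 with the stricter peak threshold, and -1.99 and 2.44 with equal covered length, so the size in long genes and the sign over all genes depended on the setting. The interaction is in points of cover and is bounded by the cover at day 1: 14 of the 20 genes had under 10% in day 1 control, and in 19 of the 20 that cover was smaller than the fall at day 5, so a fall of that size was not possible at day 1. For these genes the interaction does not separate a different response to restriction from a lower starting level. Dync1i1 was the 1 gene in the other direction: restriction took it from 48.4% ± 2.40 to 8.0004% ± 3.49 at day 1 and from 3.15% ± 0.199 to 19.3% ± 1.47 at day 5, a difference of effects of 56.6 points ± 4.63 (SE, limma, adjusted p = 3.23e-04). Restricted cells at day 5 thus had more cover there than restricted cells at day 1, while in control medium the order was the opposite. Dclk1 (-57.1 points), Ctif (-41.9), Ncam1 (-33.8), Ttc7b (-31.6) and Sh3pxd2a (-30.2) led the other 20. In day 1 control these 5 stood at 6.91%, 15.95%, 20.4%, 19.2% and 44.7%. Without day 1 control replicate 1 or 2, 11 and 10 calls were made, and without day 5 restricted replicate 1 or 2, 10 and 8. The calls on Ttc7b, Sh3pxd2a, Dysf and Eif4g3 were among those lost, while those on Dync1i1, Dclk1 and Ctif held under all 18 settings and that on Ncam1 was lost only with stricter peaks.

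Long bodies had far less cover in the Setd2 KO lines than in WT. Mean cover of the 944 bodies was 0.413% and 0.0574% in KO lines 1 and 2 at day 0, 0.443% and 0.0918% at day 1 control, 0.00767% and 1.20e-04% at day 1 restricted, 2.64% and 0.167% at day 5 control, and 2.07% and 0.225% at day 5 restricted. Of 141 long genes whose cover averaged at least 5% across all 20 lists, 140 had more cover in WT in an exact two-sided permutation test within condition with adjusted p under 0.05 and 0 in KO (96.8% and 0.0677% of the 8859 genes tested). Only 20 of the 141 also averaged 5% over the 10 KO lists, so most passed the minimum through their WT libraries and the direction was largely fixed by it. With no minimum of cover, 346 long genes were higher in WT and 114 in KO. No share over all genes is at hand for that setting, so these counts say nothing particular to long bodies. KO line 1 at day 5 had 380 and 395 long bodies without a covered base, against 499 to 524 in WT. Of the other genes, 58.9% and 69.6% had none in line 1, against 44.9% to 48.4% in WT. For 117 of the 141 both KO libraries lay below both WT libraries in all 5 conditions. That gives the smallest p that the 7776 arrangements of the permutation test allow, 2.57e-04. The minimum of cover favoured this count too, and no share over all genes is at hand for it. The median difference was 19.4 points in long genes and 42.3 over all. Without day 1 restricted, whose KO lists were nearly empty, 138 of 141 were called. The gene not called was Tns3, a focal adhesion tensin. The same 2 KO lines recur in all 5 conditions and the test takes their libraries as independent, so its p-values are too small; with each line counted once, 2 against 2 cannot go below an exact p of 0.333.

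The 2 lines were not alike at day 5. In KO line 2 only Unc5c (11.4%, 0% in both WT libraries) and Trp63 (10.99%, 0.398% and 0.349% in WT) reached 10%, both at day 5 restricted. In KO line 1, Ttn was fully marked at day 5 control and 67 bodies were partly marked, against 6 and 7 at day 0 and day 1 control. Ttn had 0%, 0% and 0% cover in line 1 at day 0, day 1 control and day 1 restricted, then 92.1% at day 5 control and 73.8% at day 5 restricted, and 0% in all 5 libraries of line 2. Neb had 55.4% and 14.4% at day 5 in line 1, Dclk1 45.8% and 26.8%, and Runx1 58.7% and 46.5%. Dysf, at 1.27% and 0.889%, had little cover in both media, where WT was fully marked in control and partly marked in restricted medium. Each KO line had 1 library per condition, so these values have no replicate check.

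Of the 174 long genes with at least 10% mean cover in WT at day 5 control, 58 also reached 10% in KO line 1 (33.3%, against 51.2% of 8678 other genes). At day 5 restricted this was 26 of 126 (20.6%, against 25.5%), at day 0 6 of 137 (4.38%, against 18.8%), at day 1 control 5 of 117 (4.27%, against 12.6%) and at day 1 restricted 0 of 103 (against 0.132%). Cover in line 1 exceeded both WT libraries for 7 of 193 long genes at day 5 control (5.93% of all genes tested), among them Asap1, Gli3, Oxr1, Runx2, Tjp1 and Tns3. At day 5 restricted it did for 25 (9.99% of all), and at day 0, day 1 control and day 1 restricted for none, with 0.147%, 0.336% and 0.021% of all genes. Tns3 had 66.2% and 51.1% in line 1 against 43.3% and 37.01% and 21.2% and 20.5% in WT. Asap1 had 60.8% and 58.7% against 47.4% and 43.995% and 28.7% and 28.96%. At day 5 control, 10 bodies little marked in WT were partly marked in line 1, among them Angpt1, Antxr1, Brinp3, Ghr, Pappa2, Ppp3ca, Thsd7a, Trdn and Unc5c.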

How the data were processed

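The 20 broad peak lists of H3K36me3 ChIP-seq (10 WT, 5 of each KO line) were used as deposited. Per the labels' protocols, Drosophila chromatin was added as a spike-in; no spike-in scaling was applied here. Coordinates are in GRCm38, per the submitters' processing notes. The aligner, peak caller, control and filters are not given in the sources used here. Of the 9 deposited columns, the fold enrichment ranked peaks within a list, the −log10 p ordered peaks for lists of equal covered length and the −log10 q gave the stricter threshold of 3, all as the authors' lists give them; the deposited score column was not used. The peak names in the lists number the KO libraries as replicates, while the labels name 2 KO lines; the labels were followed.

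Cover was the percent of a RefSeq GRCm38.p6 gene body inside merged peaks (Python 3.11.15, numpy 2.4.6, pandas 2.3.3). Protein-coding genes of at least 2 kb whose cover averaged at least 5% across the 10 WT lists (9512 genes) were fitted in limma 3.58.1 (R 4.3.3; 5 groups, empirical Bayes with trend and robust) and called at a Benjamini-Hochberg adjusted p under 0.05 over all genes tested, two-sided. Block numbers were fitted as log2(number + 1), and position as cover of the 3′-most minus that of the 5′-most of 3 equal parts. WT and KO were compared by an exact permutation test within condition. The fits were tested on simulated data. Members and lists were chosen with earlier results of these data known. Genes were named by fixed rules: the 5 largest called differences without overlap in each direction, the longest, most covered, most blocked and most asymmetric, and list members. Strand came from the promoter table, which held 707 of the 944 genes (74.9%) and 78.2% of those tested; as this is under 80%, the planned comparison of promoter sequence between classes is void, and position results hold for genes of known strand only. The same replicate numbers did not pair the libraries: the correlation of deviations ran from -0.4385 to 0.0616 over 10 pairs of groups, none above 0.1. Results for a few genes are not reported here. Leaving out the day 1 restricted libraries in the KO test was added after the data were seen.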

Additional observations from a re-analysis of the deposited data

Results flagged for a closer look

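For 21 long genes the effect of restriction on cover differed between day 1 and day 5 by the limma interaction, 20 lower and 1 higher at day 5 (5.2% of all genes tested in either direction). Leaving out 1 library gave 8 to 26 calls, and stricter peaks 10. In 19 of the 20 the cover in day 1 control was smaller than the fall at day 5, so a fall of that size was not possible at day 1. Dync1i1 stood out in the positive direction, at 56.6 points, and Dclk1 in the negative, at -57.1. The next were Ctif at -41.9, Ncam1 at -33.8, Ttc7b at -31.6 and Sh3pxd2a at -30.2 points. In the KO lines, the mean cover of the 944 long bodies at day 5 differed between restricted and control medium with opposite sign, by -0.569 points in line 1 and by 0.0580 points in line 2. That difference was not tested, with 1 library per line and medium.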

How the results depend on the processing

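Peak lists carry no read counts, so depth limits which bodies reach a peak by an unknown amount, and each group has 2 libraries. Calls at day 1 restricted against control (49) became 27 with peaks at −log10 q of at least 3, 143 with centring, 76 with no minimum of cover, 96 for genes longer than 150 kb and 18 for those longer than 300 kb; at day 5 (113) 57 with stricter peaks, 60 with equal covered length, 174 with no minimum, 206 and 37. For day 1 control against day 0 (13) there were 5 with equal covered length, 30 with no minimum, 8 at a mean of at least 10%, 0 with only the groups compared, 8 without bases of other genes, 26 and 8; for day 5 control against day 0 (93) 46 with stricter peaks, 49 with equal covered length, 177 with no minimum, 48 with only the groups compared, 174 and 36; for the difference between days (21) 10, 13, 51 with no minimum, 13 at a mean of 10%, 36 and 6. Leaving out 1 library gave 17 to 59, 74 to 123, 1 to 21, 65 to 90 and 8 to 26 calls in these 5 comparisons; a group left with 1 library was assumed to vary like the others. Block calls with peaks joined within 1 or 3 kb were 12 and 5 (day 1 restricted), 42 and 25 (day 5 restricted), 2 and 2 (day 1 control against day 0) and 28 and 18 (day 5 against day 0). The replicate block, although the numbers do not pair the libraries, gave 6 cover calls and 4 block calls for day 1 control against day 0 and 10 position calls at day 1 restricted, and moved the other 10 counts by less than 1.5 times. KO calls (140) became 80 with stricter peaks, 460 with no minimum (346 higher in WT, 114 in KO), 288 and 38. No share over all genes is at hand for these KO counts. Fully marked genes at day 5 control (mean 10) numbered 30.5 at a limit of 50%, 3 at 90%, 6.5 with stricter peaks, 5.5 with equal covered length, 23.5 with peaks within 3 kb joined, 20 above 150 kb and 0.5 above 300 kb; genes at 10% or more over the 10 WT lists (mean 130.2) numbered 72.1, 79.9, 169.6, 270.8 and 35.3 under the same settings from stricter peaks on. Among the named genes, centring reversed the sign of 10 called differences: at day 1 Abr (0.34), Apbb2 (0.964), Dst (4.81), Eif4g3 (2.34) and Tns1 (0.651), and at day 5 Abr (7.03), Dst (4.35), Neb (4.14), Rbfox2 (1.39) and Trio (1.63). Of the long genes called both with and without centring, 10 of 18 at day 1 and 27 of 49 at day 5 kept their sign. The cause was not tested where a setting changed a call, other than fewer or more genes or libraries entering. Of the other comparisons of named genes with an alternative, 1240 kept direction and side of the threshold and 193 lost the call in the same direction.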

Other observations

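The values of 5 long genes, chosen after their values were seen, are given as a description. All were among the genes tested above, so their values are not a separate check. Phkb, a subunit of the phosphorylase kinase of glycogen breakdown, had 3.70% and 1.83% at day 0, 31.99% and 32.5% at day 5 control and 16.7% and 15.02% at day 5 restricted. Akap6, an anchor of protein kinase A at the nuclear envelope of muscle, had 0.732% and 1.07%, 27.7% and 24.98% and 8.61% and 6.88%. Dtna, which encodes a dystrobrevin of the dystrophin complex, had 3.59% and 1.79%, 29.3% and 22.8% and 10.7% and 11.5%. In all 3 the restricted libraries at day 5 lay between those of day 0 and those of day 5 control. Diaph3, a formin of the cytokinetic ring, had 21.6% and 10.6% at day 0, 4.51% and 6.76% at day 1 control, 15.6% and 13.5% at day 1 restricted and 0.0778% and 0% at day 5 control. Prim2, the large subunit of DNA primase, had 14.2% and 11.2%, 7.54% and 7.91%, 12.7% and 8.90% and 2.94% and 2.21%. In both genes the day 1 restricted libraries lay above the day 1 control libraries and the day 5 control libraries lay below all others named. For day 1 restricted against control limma called neither Diaph3 (adjusted p = 0.0559) nor Prim2 (adjusted p = 0.248). The libraries of those 2 groups did not overlap in 70.5% of all genes tested.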
